A study of Mus musculus with 8 samples.

Results

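The RFX transcription factors of the mouse, Rfx1 to Rfx7, were followed in the small intestine of embryos that lack one of them, Rfx6. Members were taken by gene symbol: every probe whose gene name in the scanner files equals one of the 7 symbols was used, which gave 12 probes of the 55681 on the array. RNA was prepared from small intestine at embryonic stage E18.5 and hybridised to 8 one-colour Agilent arrays, 4 of wild-type embryos (Rfx6+/+, labelled control) and 4 of homozygous Rfx6-/- embryos (labelled Rfx6 KO). The knockout allele came from a conditional Rfx6 allele recombined by CMV-Cre, a driver active in nearly all cells, and heterozygotes were then intercrossed, so the mutants lack the intact gene throughout the body. The extent of the deleted part is not given in the sources used here, nor are litter, sex and the number of embryos behind a sample. Unless each sample is a separate embryo, the p-values measure only the spread between these samples.

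RFX proteins bind a DNA element called the X-box through a conserved winged-helix domain. Rfx1, Rfx2, Rfx3, Rfx4 and Rfx6 also carry a dimerisation domain, which Rfx5 and Rfx7 lack. Rfx2 and Rfx3 are best known as activators of cilium genes, Rfx4 acts in the brain and in testis, Rfx5 binds the promoters of MHC class II genes together with Rfxap and Rfxank, and Rfx6 acts downstream of Neurog3 in the endocrine cells of pancreas and gut. The comparison asked whether the relatives of Rfx6 respond when it is lost.

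Promoter sequence is shown first, because RFX factors can bind RFX genes. The RefSeq promoter table (GRCm38.p6, 250 bases before to 50 after the start of the gene) held all 7 members, with 8 promoters. These were searched on both strands for 3 hexamers of the X-box type. GTTGCC was found in 12.5% of all 32851 promoters of that length. GTTGCT was found in 14.8% of them. GTTACC was found in 7.21%, and 30.2% held at least 1 of the 3. Rfx1, Rfx2 and Rfx3 held 2 matches each in 1 promoter. Rfx4, the member with 2 promoters, held 1 match in each of them. Rfx5 and Rfx6 held 3 each, and Rfx7 held none. A longer X-box pattern was also searched: GTNRCC, up to 3 bases, then RGYAAC (N any base, R A or G, Y C or T). It was found in 1.53% of all promoters and in no promoter of the 7 members. In Rfx1, Rfx2 and Rfx3 the 2 hexamers stood back to back with 1 base between them, the first hexamer reading on the opposite strand. This order is the reverse of that in the longer pattern. The windows below show these pairs, 1 of the 3 matches of Rfx5 and 2 of the 3 of Rfx6, with matching bases in capitals.
Rfx1: gggtgggtAGCAACaGTTGCCccggtgagg
Rfx2: tgcagcttGGTAACcGTTGCCgggcgcaac
Rfx3: tgagttatAGCAACcGTTGCCttgtgaatc
Rfx5: ataaaAGCAACgcacgagcccgccggctgg
Rfx6: gatatAGCAACatttggtgacttctGGCAA
The windows are read 5′ to 3′ on the strand of the gene, from chr8:84066822-84066851 (plus strand) for Rfx1, chr17:56831110-56831139 (minus) for Rfx2, chr19:28011121-28011150 (minus) for Rfx3, chr3:94954125-94954154 (plus) for Rfx5 and chr10:51685510-51685539 (plus) for Rfx6, all on GRCm38.p6. The last base of the second Rfx6 match lies just outside its window. With the start base of the gene counted as 0, the pair ran from -6 to 6 in Rfx1, from -123 to -111 in Rfx2 and from 24 to 36 in Rfx3. This arrangement was picked out after the promoters had been read. It occurred in 13 of the 32851 promoters, or 0.0396%, and Rfx1, Rfx2 and Rfx3 were 3 of those 13. A match describes letters and does not show that a factor binds there.

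Signals are given as the processed signal of the scanner software in its own units, and levels as log2 of that signal minus log2 of the 75th percentile of the array. A probe counted as detected where the software marked it well above background. The lowest signal that earned this mark differed between arrays, from 16.0 to 37.6 units, and was highest on control 2, control 4 and knockout 1. Of the 12 RFX probes, 5 were detected on all 8 arrays and 2 on no array. A probe was tested if it was detected on all 4 arrays of at least 1 group. This kept 7 of the 12 RFX probes, for 5 of the 7 genes (Rfx1, Rfx3, Rfx4, Rfx6 and Rfx7). Rfx2 and Rfx5 were too dim to test.

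**Figure D1:**
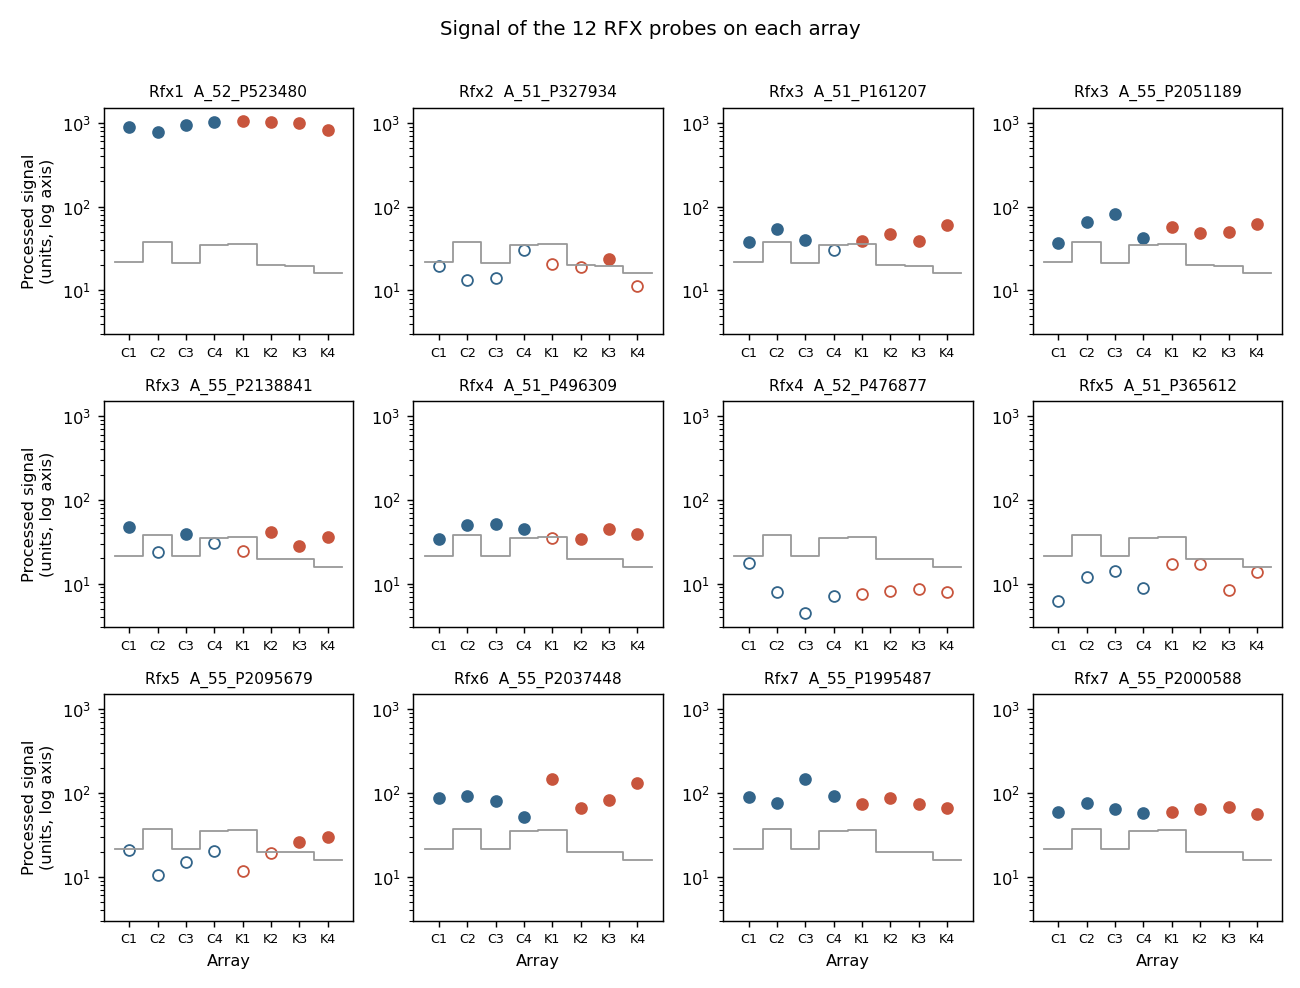
Processed signal (units, log axis) of the 12 RFX probes on control arrays C1 to C4 (blue) and Rfx6 KO arrays K1 to K4 (red). Filled points were well above background, open points were not, and the grey step line is the lowest signal marked well above background on that array; Rfx1 lies far above this line on all 8 arrays, while Rfx2, Rfx5 and parts of Rfx3 and Rfx4 lie near or under it.

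No RFX probe passed the threshold in the comparison of the groups. Called means a limma adjusted p under 0.05 over all 31662 tested probes. Of the tested RFX probes 0 of 7 were called, and 0 of 7 had an unadjusted p under 0.05, while 4.05% of all tested probes were called (2.04% lower and 2.01% higher in the knockout) and 19.3% had an unadjusted p under 0.05. The 2 groups overlapped for all 7 RFX probes, and did not overlap for 13.8% of all tested probes. Among the 7, 4 were lower and 3 were higher in the knockout mean. Their median absolute difference was 0.17 log2 units, against 0.14 for all tested probes. With 7 probes and a background of 4.05%, a count of 0 is near what the array as a whole shows. Over the whole array 646 probes were lower and 637 higher in the knockout; with arrays centred on their median in place of the 75th percentile the split was 281 lower and 676 higher. The count of lower probes fell to 261 without control 1, 334 without control 3, 348 without control 4, 220 without knockout 1 and 243 without knockout 2. The count of higher probes fell to 408 without control 1, 364 without knockout 1 and 394 without knockout 2.

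**Figure D2:**
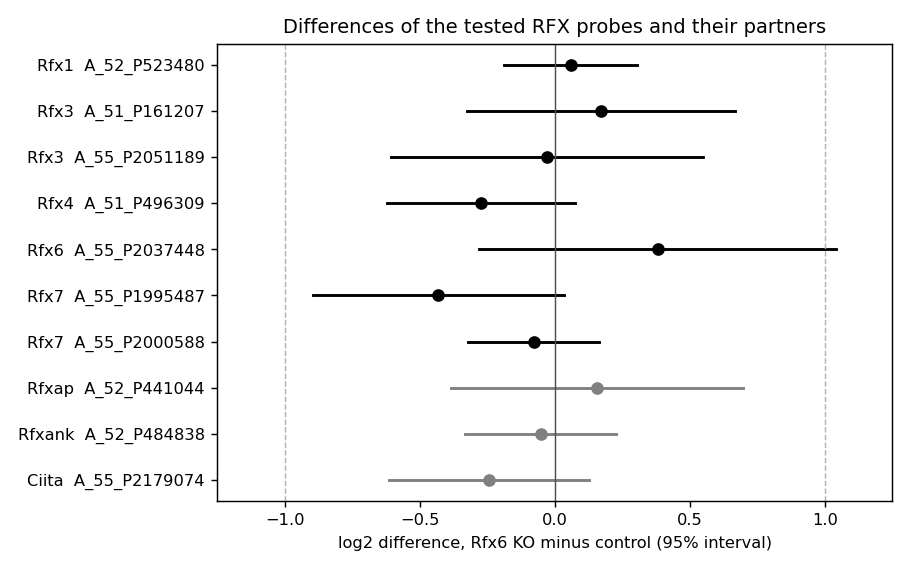
log2 difference (Rfx6 KO minus control) of the 7 tested RFX probes (black) and of 3 partner genes (grey), each with its 95% limma interval from 4 arrays per group; dashed lines mark a 2-fold change. All 10 intervals hold 0, and of the RFX probes only that of Rfx6 reaches past a dashed line.

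Rfx6 itself was examined as the targeted gene. Its single probe (A_55_P2037448) lies at chr10:51450116-51450175 on mm9, the build of the files, and begins at base 3337 of the transcript. It was detected on 8 of 8 arrays. The level was -2.93, -2.91, -2.98 and -3.74 on control arrays 1 to 4, and -2.32, -3.37, -3.11 and -2.25 on knockout arrays 1 to 4. Knockout arrays 1 and 4 were above every control array, and knockout arrays 2 and 3 were below 3 of the 4 controls. The mean was -3.14 ± 0.40 (SD, n = 4) in controls and -2.76 ± 0.56 (SD, n = 4) in knockouts. The difference of 0.38 (SE 0.29) was within the spread between replicates (limma adjusted p = 0.519; exact two-sided permutation p = 0.286, where the smallest p for 4 against 4 is 0.0286). Its 95% interval ran from -0.28 to 1.04, that is from 0.824-fold to 2.06-fold. A fall of this probe to below 0.824 of the control mean therefore lay outside the interval. Whether the probe lies inside or outside the deleted part is unknown here, so it does not check the labels.

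The difference at the Rfx6 probe was not the same in the rows of the slide. All arrays shared 1 slide. Row 1 held control 1 and knockouts 2, 3 and 4, and row 2 held controls 2, 3 and 4 and knockout 1. Within row 1 the knockouts differed from the control by 0.020, and within row 2 by 0.90. Each row held a single array of 1 group, so a row effect cannot be told apart from that array. With the row as a block the difference was 0.46 (limma adjusted p = 0.508). The standard error at this probe was larger than at 95.1% of all tested probes. The software put the error of single signals at up to 19.3% for the 5 RFX probes detected on all arrays.

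Because the Rfx6 probe is silent on the labels, hormones of endocrine cells were read beside it. Of 10 gut peptide hormone genes, 8 were called lower in the knockout, or 5 where detection on all 8 arrays was required, since Gip, Gcg and Sst are then not tested. Over the array, with each gene represented by its brightest tested probe, 2.26% of genes were called lower, 2.15% higher and 4.42% in either direction. The median difference was -5.87, against -0.051 over all such genes. Ghrl, the ghrelin gene, averaged 4.35 ± 0.14 in controls and -2.51 ± 0.10 in knockouts (SD, n = 4 each). Nts, the neurotensin gene, differed by -6.57, and Cck, which encodes cholecystokinin, by -5.16. Gip fell at least 172-fold and Gcg at least 111-fold. Both were at background on the 4 knockout arrays, so each fold is a lower bound set by the dimmest detected signals. Sst also fell and was detected on only 1 of the 4 knockout arrays, so no exact fold is given. Gast, at -0.16, did not pass. Nor did Pyy, the peptide YY gene, whose difference was -2.65: it read 888 to 1682 units in controls, 104, 104 and 108 units on knockouts 2, 3 and 4, and 1973 units on knockout 1. Knockout 1 was thus above every control for Pyy, while for Ghrl, Nts, Cck, Gip, Gcg and Sst it lay with the other knockouts. In bulk tissue, fewer cells of a type and less RNA per cell cannot be told apart.

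Among 16 regulators of the endocrine lineage, 11 were tested and 3 were higher. Foxa1 rose by 1.23, Lmx1a by 1.16 and Foxa2 by 1.00 log2 units. Neurog3, the factor that starts the endocrine lineage upstream of Rfx6, had a level of 0.55 ± 0.19 in controls and 1.01 ± 0.20 in knockouts (SD, n = 4 each), and its groups did not overlap. Its difference of 0.46 did not pass (limma adjusted p = 0.0924). The median of the list was 0.10.

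Rfx1, the broadly expressed founder of the family, was detected on all 8 arrays. Its probe (A_52_P523480, chr8:86620692-86620751 on mm9) read 898, 774, 940 and 1031 units on control arrays 1 to 4, and 1056, 1024, 1008 and 813 units on knockout arrays 1 to 4. The lowest value of each group, control 2 and knockout 4, stood close together, and the groups overlapped almost fully. The level averaged 0.42 ± 0.19 in controls and 0.48 ± 0.092 in knockouts (SD, n = 4 each). The difference was 0.059 (SE 0.11; limma adjusted p = 0.803), and the interval of the fold ran from 0.877 to 1.24. Any change of Rfx1 beyond those bounds lay outside the 95% interval.

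Rfx2, a cilium gene activator that is abundant in testis, was detected on 0 of 4 control and 1 of 4 knockout arrays. Its probe (A_51_P327934, chr17:56915749-56915808 on mm9) read 11.3 to 30.5 units over the 8 arrays. No fold is given, since neither group was detected throughout.

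Rfx3, the cilium activator that also acts in pancreatic islets, has 3 probes on the minus strand of chromosome 19. They begin at bases 938, 2461 and 6398 of the transcript. The first of these is printed as an example of how a member is read, since it lies nearest the 5′ end of the transcript.
A_51_P161207: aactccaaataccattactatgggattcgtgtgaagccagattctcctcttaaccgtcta
It lies at chr19:27900579-27900638 on mm9 and was detected on 3 of 4 control and 4 of 4 knockout arrays. Its level was -4.13, -3.71, -4.01 and -4.51 in controls and -4.24, -3.85, -4.19 and -3.40 in knockouts. Knockout 4 was the highest and control 4 the lowest, and the rest were interleaved. The difference was 0.17 (SE 0.22; limma adjusted p = 0.707). The middle probe (A_55_P2051189, chr19:27842877-27842936) ranged from -4.17 to -2.99 in controls and from -3.84 to -3.34 in knockouts, a difference of -0.030 (SE 0.26; limma adjusted p = 0.964). The last (A_55_P2138841, chr19:27838940-27838999) was detected on 2 control and 3 knockout arrays and was not tested. The sign of the middle probe turned under quantile normalization and under median centring, so no direction is given for Rfx3. Its intervals ran from 0.798-fold to 1.59-fold at the first probe and from 0.656-fold to 1.46-fold at the middle one.

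Rfx4, the brain and testis member, gave weak signal at 1 of its 2 probes. The 3′ probe (A_51_P496309, chr10:84368464-84368523 on mm9) read 34.1 to 50.9 units in controls and 34.4 to 44.9 units in knockouts, and was detected on 7 of 8 arrays. The difference was -0.27 (SE 0.15; limma adjusted p = 0.376), with an interval from 0.65-fold to 1.05-fold. Within slide row 1, which held a single control, it was 0.16. Within row 2, which held a single knockout, it was -0.62, so the signs were opposite. The other probe was detected on 0 of 8 arrays, at 4.44 to 17.6 units. It spans 458 bases of the genome, chr10:84331133-84331590, for 60 bases of sequence, and so crosses a splice junction.
A_52_P476877: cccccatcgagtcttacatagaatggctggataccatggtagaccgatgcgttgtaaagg
A spliced Rfx4 message that holds this junction was thus not seen above background, while the 3′ probe was.

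Rfx5, the MHC class II factor, was too dim to test at both of its probes. The probe at chr3:94763103-94763162 (A_51_P365612) was detected on 0 of 8 arrays, at 6.13 to 17.2 units. The probe at chr3:94765414-94765473 (A_55_P2095679) was detected on 0 control and 2 knockout arrays, numbers 3 and 4, which gave its highest signals. On those arrays the lowest signal marked well above background was smaller than on any other array, at 19.8 and 16.0 units. It is no fixed limit: Foxj1 read 21.4 units on knockout 3 and was not marked. The 4 control values were 20.9, 10.5, 15.1 and 20.4 units, against lowest marked signals of 21.6, 37.6, 21.3 and 35.1 units. The signal on knockout 3, 26.1 units, was above the lowest marked signals of control 1 and control 3 and below those of control 2 and control 4. The part of these differing values in the count of detections was not tested.

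Rfx7, a member linked to growth control and metabolism, has 2 probes that share 48 of their 60 bases near the end of the transcript. The probe at chr9:72470685-72470744 (A_55_P2000588) read 58.1 to 76.0 units in controls and 57.0 to 67.6 units in knockouts, a difference of -0.079 (SE 0.11; limma adjusted p = 0.722). The probe at chr9:72470697-72470756 (A_55_P1995487) read 90.4, 76.4, 146 and 93.3 units in controls and 73.7, 86.7, 74.9 and 66.6 units in knockouts. Control 3 was far above the rest. Its difference of -0.43 (SE 0.20) was the largest among the RFX probes and did not pass (limma adjusted p = 0.293; exact permutation p = 0.0571), and without control 3 it was -0.22. The 2 probes differed from each other by 1.19 log2 units on control 3 and by 0.0075 on control 2, and by 0.15 to 0.41 on the knockout arrays. The overlapping probes thus bound the change of Rfx7 differently: from 0.801-fold to 1.12-fold at the first and from 0.537-fold to 1.02-fold at the second.

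The partners of Rfx5 and the remaining relative were read on the same arrays. Rfxank, a subunit of the class II complex, averaged 1.02 ± 0.22 in controls and 0.97 ± 0.14 in knockouts. Rfxap, another subunit, averaged -1.71 ± 0.54 and -1.55 ± 0.15, and Ciita, the class II co-activator, -3.57 ± 0.31 and -3.82 ± 0.19 (SD, n = 4 each). In the same order the differences were -0.053, 0.16 and -0.24, none past the threshold (limma adjusted p = 0.846, 0.758 and 0.458). Rfx8 was detected on 0 control and 1 knockout arrays.

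Genes that other RFX factors are known to control were then counted. Of 10 MHC class II genes, 8 were tested and 0 passed, with a median difference of -0.14. H2-Ab1, which encodes a class II beta chain, averaged 3.17 ± 0.36 in controls and 3.01 ± 0.42 in knockouts, and H2-Eb1 2.15 ± 0.35 and 2.15 ± 0.34 (SD, n = 4 each). Leukocytes carry much of this expression: of 10 leukocyte markers, 9 were tested and 0 passed, and the mean level of the list ran from 0.90 to 0.97 in controls and from 0.73 to 0.85 in knockouts. The part of leukocyte content in the class II values was not tested. Of the 4 other factors of the class II enhanceosome, Creb1, Nfya, Nfyb and Nfyc, 0 passed, with differences from -0.11 to 0.039.

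Cilium genes, the classical targets of Rfx2 and Rfx3, gave 0 calls as well. Of 27 genes listed for cilium assembly and transport, all 27 were tested and 26 were detected on 8 arrays. The other, Rsph1, is a radial spoke gene, like Rsph4a and Rsph9 of the motile list. It was detected on 2 control and 4 knockout arrays, so it was tested through the knockout group alone. Its difference, 0.54, was the largest of the 27. The median difference of the 27 was 0.087, against -0.051 over all genes, and the groups did not overlap for 4 genes, or 14.8%, near the 13.8% of all probes. Ift20, a subunit of the transport complex, averaged 3.15 ± 0.13 in controls and 2.95 ± 0.081 in knockouts (SD, n = 4 each) and did not pass (limma adjusted p = 0.274). Kif3a, a motor subunit that carries this transport, came nearest of the 27, with a difference of 0.31 (limma adjusted p = 0.0817); it was picked out after its value was seen. In this list 1 gene was called higher under each of 4 alternatives: normexp background, the authors' value table, array weights and a trended robust prior. Of 22 genes of motile cilia on the array, 9 were tested and 0 passed, with a median of -0.14; under median centring and under array weights 1 was called higher. All 9 tested genes were detected on 8 arrays. The brightest, Mcidas, read 32239 to 41945 units in controls and 27598 to 33140 units in knockouts. Its difference of -0.29 did not pass (limma adjusted p = 0.218). Mcidas has 1 probe, and whether that probe reads only this gene was not tested. Its brightness is therefore not taken as the level of Mcidas. Gmnc, of the same list, was detected on 0 of 8 arrays. Control and knockout values stood fully apart at 2 genes, or 22.2%, against 13.8% of all probes. These were Rsph9 (0.38, limma adjusted p = 0.0839) and Tppp3 (0.26, limma adjusted p = 0.224), picked out after their values were seen. Foxj1, the master regulator of motile cilia, was detected on 1 control and 0 knockout arrays. Dnah5, an outer arm dynein heavy chain, was detected on 0 of 8 arrays.

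Of 13 genes reported elsewhere as Rfx7 targets, 0 of 13 passed, with a median difference of -0.048. Under 5 of the 19 alternatives 1 of the 13 was called higher: normexp background, the authors' value table, array weights, a trended robust prior, and without knockout 3. Pdcd4, a translation inhibitor, averaged 4.77 ± 0.18 in controls and 4.63 ± 0.23 in knockouts (SD, n = 4 each). Pik3ip1, an inhibitor of PI3 kinase, differed by 0.40 with groups that did not overlap, but missed the threshold (limma adjusted p = 0.0610). Tob1 (-0.28) and Sesn3 (0.23) also had groups that did not overlap and did not pass; these 3 were picked out after their values were seen. They make up 23.1% of the list, against 13.8% of all tested probes.

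**Figure D3:**
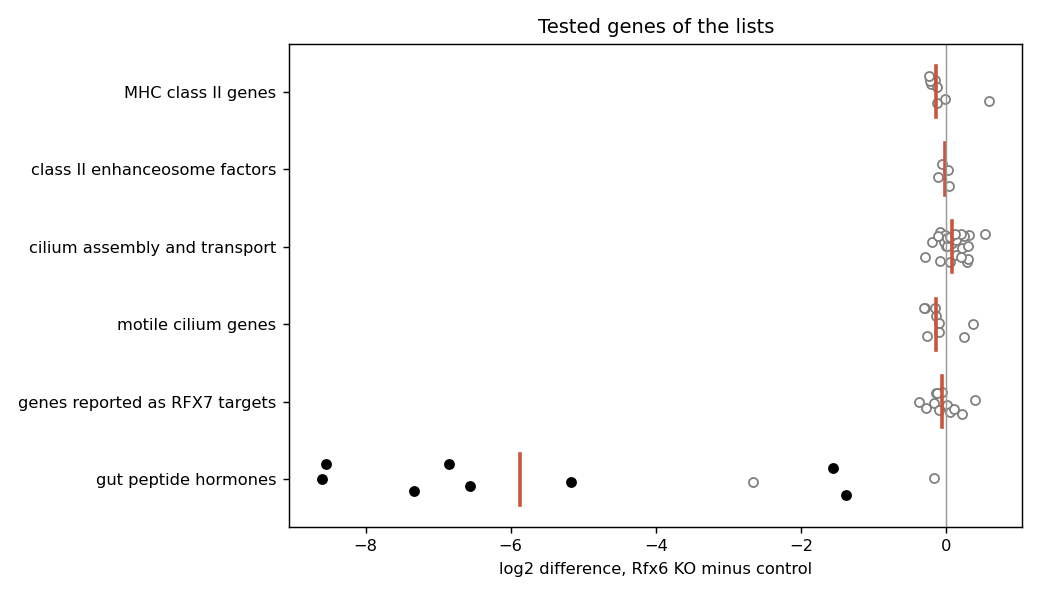
log2 difference (Rfx6 KO minus control) of each tested gene in 6 lists; filled points passed a limma adjusted p under 0.05, open points did not, and the red bar is the median of the list. The 5 lists tied to other RFX factors sit near 0 with no filled point, and the hormone list has 8 filled points, with its median at -5.87.

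Genes beside Rfx6 on chromosome 10 were read as well, since they share its stretch of chromosome in mutants and wild types. For the 5 nearest tested genes named through the RefSeq table on each side of the Rfx6 probe, on the coordinates of the files, 1 of 10 was called, against 4.42% of all genes, so a single call among 10 is no result about this stretch. Dcbld1, a membrane receptor gene 591 kb after the probe, was lower by 0.775-fold (limma adjusted p = 0.0349; exact permutation p = 0.0286), and its values within the slide rows were -0.43 and -0.32. Ros1, a receptor kinase gene 316 kb after the probe, stood at 0.804-fold and did not pass (limma adjusted p = 0.109). Vgll2, a transcription cofactor gene 298 kb after it, was too variable to place, with an interval from 0.217-fold to 1.52-fold. On the other side, Fam162b, the nearest tested and named gene before the probe, at -145 kb, stood 0.27 log2 units higher. It did not pass (limma adjusted p = 0.289). Grik2 and Hace1, the farthest on that side, lay at -2207 and -6018 kb, so not all neighbours are close to Rfx6. Gopc, which lies 607 kb after the probe and close to Dcbld1, stood at 0.938-fold and did not pass (limma adjusted p = 0.55).

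**Figure D4:**
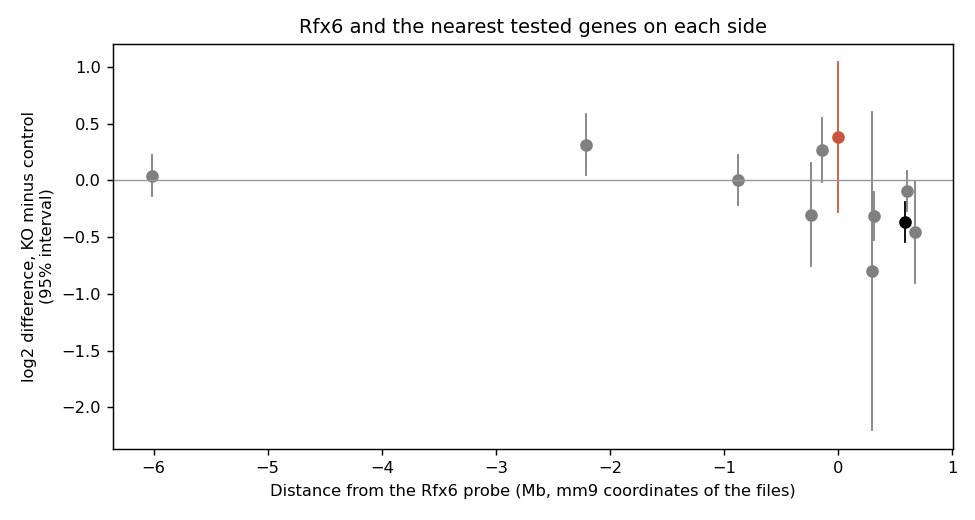
log2 difference (Rfx6 KO minus control, with 95% limma intervals, 4 arrays per group) of Rfx6 (red) and the 5 nearest tested genes on each side, against distance from the Rfx6 probe in Mb on mm9 coordinates. Dcbld1 (black) is the called gene; the other 9 neighbours (grey) did not pass.

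For each tested RFX probe the 2 named genes with the most similar levels over the 8 arrays were listed, out of 19863 probes that were detected on all arrays and could be named through the RefSeq table. This is a description: 8 arrays of 2 groups were set against that many probes, so high values can arise easily. Orai2 (Pearson r = 0.953) and Ap3b2 (0.943) lay nearest to Rfx6. Map1s (0.997) and Ap3s2 (0.993) lay nearest to Rfx1, and Svop (0.988) and Smad3 (0.96) to the brighter Rfx7 probe.

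The label of the tissue was checked against markers. All 8 small intestinal epithelium markers were detected on 8 of 8 arrays, and 3 of them (Lct, Fabp1 and Apoa4) fell in the knockout. The knockout arrays also carried markers of another organ: of 8 stomach epithelium markers 7 rose, and Gkn2, Atp4a and Cblif were not detected on any control array. The mean level of that list ran from -5.08 to -3.56 in controls and from 2.17 to 2.86 in knockouts. Liver markers rose for 3 of 8 genes, exocrine pancreas markers for 0 of 6 tested, and enteric neuron and glia markers for 0 of 8. The part of these shifts in the values of the RFX genes was not tested.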

How the data were processed

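Spot intensities were deposited as 1-colour Cy3 scanner files made by the authors with Feature Extraction 10.10.1.1, on a grid built on mm9, per the file headers. The processed intensity is background-subtracted and is not scaled between arrays, per the file headers. Per the labels' protocols, 100 ng of total RNA was amplified. The authors' value table, also intensity, has no stated method; its columns correlated with the spot means at a Spearman rho of at least 0.998, with medians of 143 to 144.

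Control spots (3671 of 62976) and outlier spots (153 to 355 per array) were left out, 0 gene spots were saturated, and spots of a probe were averaged. Levels are log2 of the signal over the 75th percentile of the array, 636 to 741 units. The share of probes well above background was 57.5% to 67.1%; the number of arrays limits the precision. The comparison used a linear model per probe with moderated variances (lmFit, eBayes; limma 3.58.1 under R 4.3.3). Its two-sided p-values were adjusted by Benjamini-Hochberg over 31662 probes. In simulated data of 31511 probes, 79.0% of 2-fold and 98.0% of 4-fold changes were called, and 3.80% of calls were false. There, 200 probes picked at random were changed, and noise was drawn independently at each probe's own spread, without slide row effects. These shares do not give the chance of a call for the RFX probes. Names came from the files, updated through a GRCm38.p6 table where it held them (2864 probes by accession, 492 by synonym); 26005 kept the file's name.

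The members and gene lists were chosen with earlier results of these data known. Named genes were all member probes, Rfx8, Rfxap, Rfxank and Ciita, up to 6 called genes per list or otherwise bright ones, 5 neighbours of Rfx6 per side, 2 genes of like pattern per probe, and markers that were absent or differed; some results under this rule are not reported here. Replicate numbers did not pair the samples: deviations of same-numbered arrays correlated at -0.079, -0.19, 0.13 and -0.48. The closing section gives 19 alternatives in background, scaling, filter, blocks, weights and samples.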

Additional observations from a re-analysis of the deposited data

Results flagged for a closer look

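Of 72 groups of 4 values, covering the RFX probes, their partners, the neighbours of Rfx6 and the called list genes, 4 held a value well apart from the rest. That is 5.56%, and about 1 in 20 would be so by chance. Rfx6 was low on control 4, at -3.74 against -2.98 to -2.91 on the other controls, and without that array its difference was 0.18. Rfxap was low on control 1, at -2.52 against -1.49 to -1.36. On control 2, Lmx1a was low at -3.11 against -2.66 to -2.62, and Sst was low at 1.75 against 1.98 to 2.03.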

How the results depend on the processing

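Under each of the 19 alternatives, 0 RFX probes were called by limma; without the filter on dim probes all 12 were tested, 0 were called, 0 had an unadjusted p under 0.05, and the smallest adjusted p was 0.479. Of 129 values of single RFX probes, 117 kept their direction and 12 turned, all of them past no threshold; the cause was not tested. The Rfx1 difference was -0.0063 with array weights and ran from -0.034 (without control 2) to 0.10 when 1 array was left out. The first Rfx3 probe was -0.013 with normexp background and ran from -0.0032 (without knockout 4) to 0.30. The middle Rfx3 probe was 0.046 with quantile normalization, 0.035 with median centring and 0.14 with the slide row block; it was 0.053 without control 2, 0.19 without control 3, 0.020 without knockout 2 and 0.024 without knockout 3, and the lowest value was -0.20 without control 1. The dimmer Rfx7 probe was 0.047 with the authors' value table. Rfx6 (0.18 to 0.58), Rfx4 (-0.39 to -0.035) and the brighter Rfx7 probe (-0.65 to -0.22) kept their direction, with smallest adjusted p of 0.419, 0.196 and 0.0985.

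The 12 calls over the RFX-related, endocrine and hormone lists ran from 8 to 17, and from 11 to 13 when 1 array was left out. Over the whole array, lower and higher probes numbered 144 and 271 without the filter, 423 and 451 with the slide row block, 1308 and 954 with array weights, and 136 and 290 with the replicate block, which called 0 RFX probes and gave Rfx6 a difference of 0.38 (limma adjusted p = 0.634). With any single array removed, and so fewer samples, lower probes numbered 220 to 599 and higher ones 364 to 581. Signals near or under the lowest signal marked well above background restrict Rfx2, Rfx4 and Rfx5, and the first and last probes of Rfx3.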

Other observations

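The back-to-back pair of hexamers found in the promoters of Rfx1, Rfx2 and Rfx3 occurred in 10 other genes. Of the 13 genes, 7 had a tested probe and 0 were called by limma. Among them Ezr, which encodes the microvillus linker ezrin, had a level of 4.90 in controls and 4.98 in knockouts (difference 0.076, SE 0.14), and Aqp1, a water channel gene, 2.81 and 2.82 (difference 0.0073, SE 0.20). Ubl3 differed by -0.26 (limma adjusted p = 0.225), Lrrc56 by -0.15 and Nat14 by -0.081.

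Promoters with at least 1 of the 3 hexamers made up 31.9% of 12335 tested genes with a promoter in the table. The share was 25.8% of 337 genes called lower and 34.8% of 339 called higher in the knockout. Among the tested cilium assembly and transport genes 16 of 22 held one (72.7%). So did 5 of 7 motile cilium genes (71.4%) and 5 of 6 MHC class II genes (83.3%). Among the other lists the counts were 1 of 4 enhanceosome factors, 3 of 10 reported Rfx7 targets, 1 of 7 endocrine regulators and 2 of 10 hormone genes. These shares describe letters in 300-base windows and were not tested.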
